A study of Mus musculus with 15 samples.

Results

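Grhl1, Grhl2, Elf3, Ehf and Klf5 encode transcription factors of epithelial cells, and their chromatin was followed here in liver hepatocytes, biliary cells and hepatocytes labelled as reprogrammed. The measurement was ATAC-seq, in which a transposase cuts and tags open DNA, so a value gives the accessibility of a region and not the expression of a gene. Regions were chosen by position: a region belonged to a gene when its midpoint lay in the gene's RefSeq body, or when that body was the nearest one and lay within 50 kb. This gave 58 of the 93217 deposited regions, and the 5 genes are 5 of 16719 protein-coding genes with a region. Grhl1 had 8 regions, Grhl2 13, Elf3 7, Ehf 19 and Klf5 11. The measured values played no part in the choice of regions, but the 5 genes were chosen with earlier results of these data known.

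Mouse liver gave 15 ATAC-seq libraries, 3 for each of 5 labelled populations: untreated hepatocytes, DDC hepatocytes, DDC reprogrammed hepatocytes, DDC biliary cells and untreated biliary cells. DDC is the usual short name of diethoxycarbonyl-dihydrocollidine, a feed additive that damages bile ducts, although the labels give only the letters. All cells were sorted straight from the liver, with no culture and no treatment after the sort. The sources used here do not give genotype, strain, age, DDC dose, feeding time, sort markers or how reprogrammed hepatocytes were recognised. Whether replicates are separate animals is not labelled either, so the p-values measure only the spread between these libraries, which may be technical. In sorted bulk cells, fewer cells of a type and less open chromatin per cell cannot be told apart.

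Grainyhead-like factors, the family of Grhl1 and Grhl2, bind genes of cell junctions and surface protease inhibitors and keep epithelial layers sealed. Elf3 and Ehf belong to the epithelium-specific branch of the ETS family, and Klf5 is a zinc-finger factor of dividing epithelia such as the intestinal crypt. Bile duct cells form a simple epithelium with tight apical junctions, and Grhl2 is known to act in biliary cells on junction genes such as the claudins, whereas hepatocytes are epithelial cells of another build.

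Library depth differed strongly between groups and limits what can be said of hepatocytes. Reads in nuclear regions numbered 201705 to 605309 in untreated hepatocytes, 1191409 to 2342643 in DDC hepatocytes, 4756891 to 9829886 in reprogrammed hepatocytes, 5151190 to 10395918 in DDC biliary cells and 2439831 to 4389653 in untreated biliary cells. The 2 mitochondrial regions held 63.14 to 84.18% of all reads in untreated hepatocytes, 29.06 to 42.38% in DDC hepatocytes and 4.69 to 21.92% in the other groups, so values were rescaled to reads per 1000000 reads in nuclear regions, called nuclear RPM below. A count of 0 reads in an untreated hepatocyte library allows up to 4.956 to 14.873 nuclear RPM (3 reads), against 0.289 to 0.582 in DDC biliary cells. These limits cover counting error only. Even numbers made up 53.6 to 82.4% of read counts from 1 to 20, the most in untreated hepatocytes, so single reads cannot be taken as independent molecules.

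The labelled cell types were checked against marker genes. The summed nuclear RPM of 8 hepatocyte markers was 2537.6 to 3409.8 in untreated hepatocytes, 2133.1 to 2659.5 in DDC hepatocytes, 394.5 to 821.1 in reprogrammed hepatocytes, 259.1 to 466.7 in DDC biliary cells and 324.4 to 733.0 in untreated biliary cells. The sum of 8 biliary markers was 437.8 to 604.6, 422.2 to 569.9, 971.5 to 1088.3, 1270.1 to 1409.5 and 1288.4 to 1399.3 in the same order. The reprogrammed libraries thus lay near biliary cells on the first list and between the 2 cell types on the second. Sums of 6 endothelial markers differed between groups, at 123.9 to 158.6, 189.7 to 213.4, 132.1 to 191.5, 118.4 to 136.6 and 71.8 to 100.5 in that order, highest in DDC hepatocytes apart from an overlap with reprogrammed cells. Sums of 5 stellate markers were 76.6 to 140.4, 106.8 to 136.0, 128.1 to 152.0, 115.7 to 143.7 and 136.4 to 170.2. Of 7 macrophage markers 3 had a region, with sums of 57.8 to 85.2 in untreated hepatocytes and 92.4 to 163.7 in the other groups. Of 6 lymphocyte markers 3 had one, with sums of 44.6 to 69.4 in untreated hepatocytes, 14.9 to 36.9 in DDC hepatocytes and 7.1 to 17.0 in the other groups. The part of any of these in the values of the 5 genes was not tested.

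RefSeq promoter windows (250 bases before to 50 after a transcription start, build GRCm38.p6) were given for 2 of the 5 genes. They are shown because each lies under its gene's most accessible region, so they are the DNA whose opening is compared below. Capitals mark matches to the KLF motif CCNCNCCC and, in Elf3, to the TEAD motif GGAATG, on either strand.

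Grhl1, chr12:24572037-24572336, + strand: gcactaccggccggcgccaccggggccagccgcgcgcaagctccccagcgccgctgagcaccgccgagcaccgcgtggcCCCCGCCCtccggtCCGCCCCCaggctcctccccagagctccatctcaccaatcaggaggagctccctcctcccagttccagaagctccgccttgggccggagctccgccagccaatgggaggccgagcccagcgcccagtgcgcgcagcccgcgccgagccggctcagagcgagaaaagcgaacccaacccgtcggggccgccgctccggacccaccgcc

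Elf3, chr1:135258423-135258722, - strand: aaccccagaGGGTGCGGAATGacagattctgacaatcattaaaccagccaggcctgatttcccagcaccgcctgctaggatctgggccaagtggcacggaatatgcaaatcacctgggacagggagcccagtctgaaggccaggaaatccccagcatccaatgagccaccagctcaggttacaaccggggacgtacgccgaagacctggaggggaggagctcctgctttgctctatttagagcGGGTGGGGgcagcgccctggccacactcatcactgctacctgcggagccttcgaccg

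The Grhl1 window had a GC content of 75.3% and 35 CpG sites, and that of Elf3 59.0% and 12, against medians of 53.0% and 7 over 32544 promoter windows. Both Grhl1 matches are to the KLF motif and start 171 and 157 bases before the start site. In Elf3 the first capital run holds a KLF match and a TEAD match that share bases, 241 and 235 bases before the start site, and the second run is a KLF match 7 bases before it. The KLF motif occurs in 49.7% of all windows and the TEAD motif in 14.6%. No match to AACNNGTT (grainyhead-like, 4.2% of windows), CCGGAAGT (ETS, 3.9%) or TGANTCA (AP-1, 7.8%) was found in these windows. A second Grhl1 window, at chr12:24580469-24580768, had no deposited region over it and no match to any of the motifs.

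Grhl2 had the largest fold between its lowest and highest group mean, nearly closed in DDC hepatocytes and open in biliary cells. Its body spans 130.7 kb (chromosome 15, 37232821 to 37363569), with no protein-coding gene overlapping it, Ncald 2.6 kb beyond the end with the higher position and the next gene on the other side 224.3 kb away. Summed over its 13 regions, Grhl2 stood at 39.7, 11.6 and 34.1 nuclear RPM in the 3 untreated hepatocyte libraries and at 12.8, 10.1 and 11.8 in DDC hepatocytes. It stood at 62.9, 45.3 and 54.2 in reprogrammed hepatocytes, 123.4, 138.2 and 142.9 in DDC biliary cells and 139, 132 and 140 in untreated biliary cells. Reprogrammed libraries lay above every hepatocyte library and below every biliary library, and the 2 biliary groups overlapped. The untreated hepatocyte values rest on 8, 7 and 8 reads, so the order of the 2 hepatocyte groups is weakly measured.

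By limma-trend over all genes, Grhl2 was higher in DDC biliary cells than in DDC hepatocytes by 3.44 ± 0.32 on the log2(nuclear RPM + 1) scale (estimate ± SE, adjusted p = 8.67e-06, 10.9-fold on that scale). It was higher in untreated biliary cells than in untreated hepatocytes by 2.40 ± 0.32 (adjusted p = 7.31e-05), a call lost when reads were thinned to equal depth (2.34, adjusted p = 0.0675). In reprogrammed against DDC hepatocytes it rose by 2.13 ± 0.32 (adjusted p = 0.000729), and that call held in all 16 alternatives run. DDC hepatocytes were lower than untreated hepatocytes (-1.07 ± 0.32, adjusted p = 0.0407), but 5 of 15 alternatives made that call, edgeR gave -1.01 (adjusted p = 0.147) and the values as deposited gave 0.41. Without untreated hepatocyte library 1 the difference was -0.75 (adjusted p = 0.0962) and without library 3 it was -0.86 (adjusted p = 0.0842). Without untreated hepatocyte library 2 it was -1.60 (adjusted p = 5.03e-05). Leaving out DDC hepatocyte library 1, 2 or 3 gave -1.14, -0.98 and -1.08 (adjusted p = 0.0893, 0.12 and 0.0657).

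The level of Grhl2 in reprogrammed hepatocytes was compared with that in DDC biliary cells. The difference was -1.31 ± 0.32 and missed the threshold in the fit of all 15 libraries (adjusted p = 0.284), where the shallow untreated hepatocyte libraries enter the shared spread. In a fit without untreated hepatocytes, added after the data had been seen, the adjusted p was 0.00024, and edgeR's quasi-likelihood test gave -1.36 (adjusted p = 3.49e-05). Over the 16 alternatives the adjusted p ran from 2.47e-05 to 1.0 and 4 made the call. Placed between DDC hepatocytes at 0% and DDC biliary cells at 100% of the linear level, the reprogrammed mean of Grhl2 was at 34.6% (41.7, 27.4 and 34.6% by library). Over the 2097 genes higher in DDC biliary than in DDC hepatocytes, the median was 69.2%, with quartiles of 49.0 and 89.1%.

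**Figure D1:**
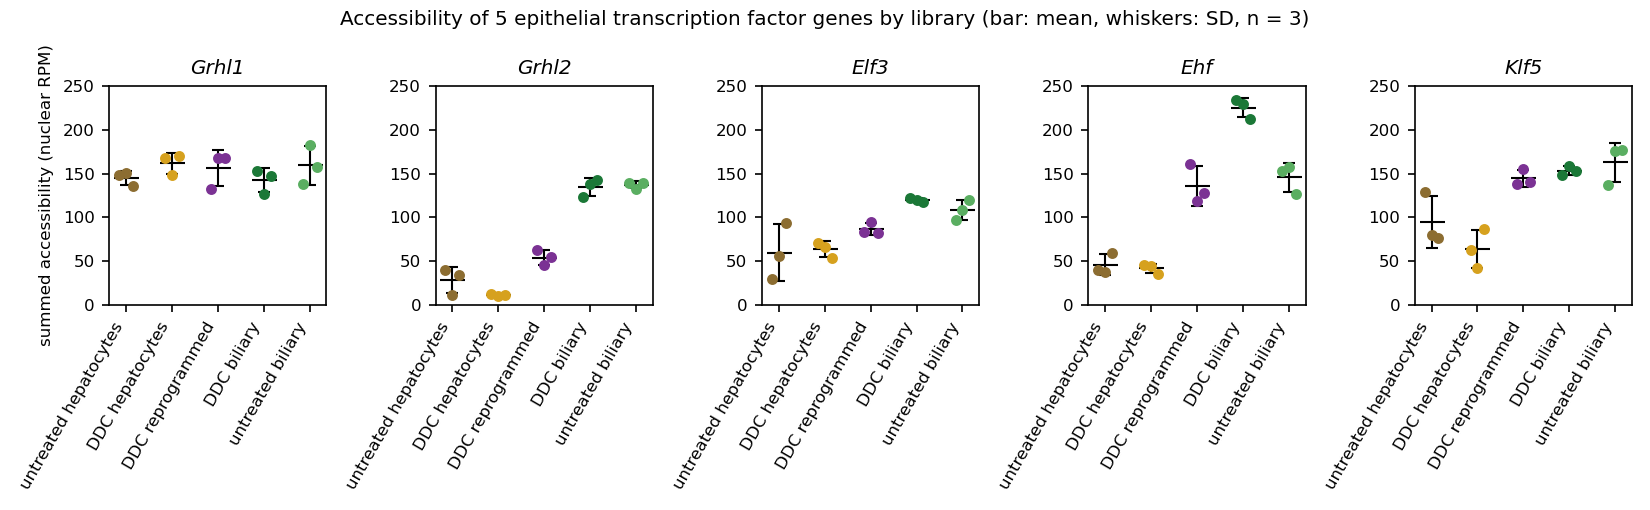
Summed accessibility of each gene in nuclear RPM (vertical axis, from 0) for the 15 libraries in 5 groups; points are libraries, bars means and whiskers SD (n = 3). Grhl2 and Ehf climb from hepatocytes through reprogrammed to biliary cells, while the 5 groups of Grhl1 overlap.

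The tallest Grhl2 region lay at one end of the gene. Grhl2 region 8 (regions are numbered along the chromosome) covers the end of the gene body with the lower position, at chr15:37232068-37234948. It stood at 9.92, 3.30 and 17.0 nuclear RPM in untreated hepatocytes, 3.84, 2.87 and 3.36 in DDC hepatocytes, 24.8, 20.8 and 23.1 in reprogrammed hepatocytes, 64.0, 66.0 and 71.3 in DDC biliary cells and 78.2, 82.4 and 88.2 in untreated biliary cells. The 3 DDC groups were separate from each other, with reprogrammed cells at 30.6% of the way from hepatocytes to biliary cells. It was higher in DDC biliary than in DDC hepatocytes by 3.97 ± 0.40 (adjusted p = 9e-05) and in reprogrammed than in DDC hepatocytes by 2.46 ± 0.40 (adjusted p = 0.00258). Reprogrammed against DDC biliary cells gave -1.51, with an adjusted p of 0.39 over all libraries and of 0.00144 without untreated hepatocytes (6.55e-05 to 1.0 over 11 alternatives).

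Region 8 held 49.8% of the Grhl2 signal in DDC biliary cells and 29.1% in DDC hepatocytes. The other 12 Grhl2 regions were by their means also lowest in hepatocytes and intermediate in reprogrammed cells. Their mean was higher in DDC than in untreated biliary cells, with overlapping libraries, where region 8 was lower. They summed to 18.4 ± 10.8 in untreated hepatocytes, 8.19 ± 0.90 in DDC hepatocytes, 31.3 ± 6.82 in reprogrammed hepatocytes, 67.7 ± 7.18 in DDC biliary cells and 54.2 ± 6.10 in the untreated ones (mean ± SD, n = 3). Of the 13 Grhl2 regions 12 passed the filter on low values and were tested. A region that passed through biliary libraries alone had to differ from hepatocytes. The counts that follow thus describe the tested regions and not the locus. In DDC biliary cells against DDC hepatocytes 8 were higher (16.4% of all tested regions), in untreated biliary cells against untreated hepatocytes 7 (22.1%) and in reprogrammed against DDC hepatocytes 3 (8.14%). The 3 are regions 1, 5 and 8. Region 5 had 0 reads in all 3 DDC hepatocyte libraries, whose limits were 1.281 to 2.518, and stood at 7.89, 6.0 and 7.99 nuclear RPM in reprogrammed hepatocytes (adjusted p = 0.00728). In untreated hepatocytes region 5 stood at 9.92, 1.65 and 0, on 3 reads. In the limma fit of all libraries no Grhl2 region was called lower in any of the 7 comparisons, each with at most 12.1% of all tested regions lower. By edgeR, however, region 8 was lower in reprogrammed than in DDC biliary cells (-1.53, adjusted p = 7.98e-05). Without untreated hepatocyte library 2, limma also called region 8 lower in DDC than in untreated hepatocytes (-1.69, adjusted p = 0.000637).

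Summed over its 8 regions, Grhl1, the close relative of Grhl2, was accessible to a like level in every group, although single regions moved in opposite directions. Its body lies at chromosome 12, 24572232 to 24617391, with Taf1b and Klf11 as neighbours 13.7 and 34.0 kb away. Grhl1 stood at 149, 150 and 136 nuclear RPM in untreated hepatocytes, 168, 148 and 170 in DDC hepatocytes, 132, 168 and 168 in reprogrammed hepatocytes, 153, 127 and 148 in DDC biliary cells and 138, 183 and 157 in untreated biliary cells. All neighbours in the order of means overlapped, and no comparison was called (log2 changes from -0.18 to 0.16, adjusted p from 0.402 to 1.0; -0.31 for the difference of the DDC effects, adjusted p = 0.411). On the deposited scale Grhl1 was called higher in untreated biliary cells and in DDC hepatocytes than in untreated hepatocytes (by 2.0 and 1.72), as were most genes. With regions inside the body only, which leaves out region 6 described below, the sum was higher than in DDC hepatocytes without a call. The differences were 0.48 in reprogrammed and 0.43 in DDC biliary cells.

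One Grhl1 region went the other way from the other 4 genes. Grhl1 region 1 (chr12:24571405-24572991) covers the first promoter window printed above and had group means of 65.7 to 88.8 nuclear RPM, with no comparison called by limma over all libraries. By edgeR it was higher in untreated biliary cells than in untreated hepatocytes (1.17, adjusted p = 0.00168). Grhl1 region 6 (chr12:24626290-24627765) lies 9.64 kb beyond the body, with Klf11 the next nearest gene at 24.3 kb. It stood at 44.6, 43.0 and 25.6 in untreated hepatocytes and 40.1, 44.5 and 43.7 in DDC hepatocytes, but at 2.63, 3.46 and 8.20 in reprogrammed hepatocytes, 3.37, 4.66 and 3.42 in DDC biliary cells and 12.9, 8.20 and 4.56 in untreated biliary cells. Every hepatocyte library was above every library of the other groups. Grhl1 region 5 went the opposite way, higher in DDC biliary cells than in DDC hepatocytes by limma (1.29 ± 0.39, adjusted p = 0.0228). Limma also called Grhl1 region 3 higher in untreated biliary cells and in DDC hepatocytes than in untreated hepatocytes (adjusted p = 0.0124 and 0.0477). Untreated hepatocytes held 6 reads there, all in library 2, at 9.91 nuclear RPM against 9.82, 10.53 and 7.55 in DDC hepatocytes. The first call was made in 8 of 10 alternatives and the second in 3 of 10 (adjusted p from 4.95e-05 to 0.396).

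Grhl1 region 6 fell by 3.04 ± 0.44 in reprogrammed against DDC hepatocytes (adjusted p = 0.00166) and was lower in DDC biliary cells than in DDC hepatocytes (-3.19 ± 0.44, adjusted p = 0.000267). Both calls held in all 11 alternatives run. In untreated cells it was lower in biliary cells by the same fit (-2.08 ± 0.44, adjusted p = 0.00203), and reprogrammed and DDC biliary cells differed by 0.15 (adjusted p = 1.0). In the limma fit of all libraries Grhl1 region 6 was the only one of the 58 regions called lower in any comparison. At most 12.1% of all tested regions were called lower in a comparison. Other fits called further regions lower, among them Grhl2 region 8 in reprogrammed against DDC biliary cells. Klf5 region 3 was called lower in DDC than in untreated hepatocytes without DDC hepatocyte library 3 (limma, -0.85, adjusted p = 0.0413). The hepatocyte marker sums given above moved in the same direction, and their part in this result was not tested.

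Elf3 was open in all groups, and of the 4 genes called between the DDC cell types it had the smallest difference. Its body is short, 4.9 kb (chromosome 1, 135253574 to 135258472), with Rnpep 4.2 kb away. Elf3 stood at 29.8, 56.2 and 93.7 nuclear RPM in untreated hepatocytes, 70.9, 66.6 and 53.7 in DDC hepatocytes, 83.2, 94.3 and 82.6 in reprogrammed hepatocytes, 122, 120 and 117 in DDC biliary cells and 96.7, 109 and 120 in untreated biliary cells. The DDC groups did not overlap, while the untreated hepatocytes, with 6, 34 and 22 reads, spread from below all DDC hepatocyte libraries to within the range of the reprogrammed ones.

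Elf3 was higher in untreated biliary cells than in untreated hepatocytes by 0.99 ± 0.28 (adjusted p = 0.0113) and in DDC biliary cells than in DDC hepatocytes by 0.91 ± 0.28 (adjusted p = 0.0259). The first was not called when only the compared groups were fitted (adjusted p = 0.111) or with thinned reads (adjusted p = 0.344). The second was lost in 5 of 6 fits that left out a library: without DDC hepatocyte library 2 or 3 (adjusted p = 0.059 and 0.0957) and without DDC biliary library 1, 2 or 3 (adjusted p = 0.0773, 0.0665 and 0.0667). It was also lost with regions inside the gene body only (0.56, adjusted p = 0.268). Reprogrammed against DDC hepatocytes gave 0.45 ± 0.28 (adjusted p = 0.333), which became a call without untreated hepatocytes (adjusted p = 0.0177; 0.0177 to 0.6 over 16 alternatives).

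Most of the Elf3 signal came from its promoter. Elf3 region 7 (chr1:135256026-135259507) covers the window printed above and held 64.3 to 82.1% of the Elf3 total, depending on the group. Its means were 48.1, 52.3, 69.4, 76.9 and 84.6 nuclear RPM in untreated hepatocytes, DDC hepatocytes, reprogrammed hepatocytes, DDC biliary cells and untreated biliary cells. It passed in untreated biliary cells against untreated hepatocytes (0.99 ± 0.33, adjusted p = 0.032), but not without untreated hepatocyte library 1 (0.46, adjusted p = 0.109) or without untreated biliary library 2 or 3 (adjusted p = 0.0933 and 0.1).

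Elf3 region 2 (chr1:135226560-135227938), 26.32 kb from the body, behaved differently from the promoter. It stood at 14.5, 15.9 and 14.9 nuclear RPM in DDC biliary cells and at 3.78, 1.23 and 4.10 in untreated biliary cells, with 2.85, 2.24 and 6.10 in reprogrammed hepatocytes, 1.71, 0.48 and 0 in DDC hepatocytes and no read in untreated hepatocytes. The 3 DDC biliary libraries were above all libraries of the DDC hepatocyte, reprogrammed and untreated biliary groups. For a count of 0 the limit was 14.873, 4.956 and 12.773 in untreated hepatocyte libraries 1, 2 and 3. Only the limit of library 1 reaches any of the DDC biliary values. In the limma fit of all libraries Elf3 region 2 was the only one of the 58 regions called between DDC and untreated biliary cells (2.09 ± 0.50, adjusted p = 0.0312), where 3.47% of all tested regions were called. There edgeR called 6 of the 58 regions (10522 of all 79075 tested), and 8 were called without untreated hepatocytes (11832 of all tested). The call was lost in each of the 6 fits without 1 library of either group (1.70 to 2.30, adjusted p from 0.0533 to 0.148). It was also higher in DDC biliary cells than in DDC hepatocytes (3.34 ± 0.50, adjusted p = 0.000405, with 5 reads in DDC hepatocytes), in all 11 alternatives run. The 6 Elf3 regions other than region 7 summed to 42.8 ± 0.86 in DDC biliary cells, against 23.9 ± 4.09 in untreated biliary cells.

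Ehf had the most regions, and its signal was spread along the locus. The body lies at chromosome 2, 103263431 to 103303275, with Elf5, another epithelial ETS gene, 108.8 kb beyond the end with the higher position. Ehf stood at 39.7, 38.0 and 59.6 nuclear RPM in untreated hepatocytes, 45.7, 44.1 and 35.3 in DDC hepatocytes, 161, 118 and 128 in reprogrammed hepatocytes, 234, 229 and 213 in DDC biliary cells and 153, 158 and 127 in untreated biliary cells. Hepatocytes of both kinds overlapped, reprogrammed hepatocytes overlapped untreated biliary cells, and the DDC biliary libraries were above all others.

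Ehf rose by 1.68 ± 0.19 in reprogrammed against DDC hepatocytes (adjusted p = 0.000129). It was higher in DDC biliary cells than in DDC hepatocytes by 2.42 ± 0.19 (adjusted p = 2.37e-06) and in untreated biliary cells than in untreated hepatocytes by 1.67 ± 0.19 (adjusted p = 1.46e-05). These 3 calls held in every alternative run (16, 16 and 15). DDC against untreated biliary cells gave 0.63 ± 0.19 and missed the threshold in the fit of all libraries (adjusted p = 0.0784). It passed without untreated hepatocytes (adjusted p = 0.00595) and in edgeR (0.68, adjusted p = 0.00296), with adjusted p from 0.00027 to 0.75 over 16 alternatives. Reprogrammed against DDC biliary cells gave -0.74 ± 0.19 (adjusted p = 0.284; 0.0121 without untreated hepatocytes, 0.00132 to 1.0 over 16 alternatives). The reprogrammed mean of Ehf lay at 51.3% of the way from DDC hepatocytes to DDC biliary cells (65.1, 41.7 and 47.0% by library).

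The 5 Ehf regions with the highest means over all libraries lay inside the body or up to 44.62 kb beyond it. Region 12 (chr2:103301910-103304968), at the end of the body with the higher position, stood at 8.11, 6.22 and 6.71 nuclear RPM in DDC hepatocytes, 34.5, 18.5 and 28.2 in reprogrammed hepatocytes, 52.3, 55.7 and 44.3 in DDC biliary cells and 26.5, 27.1 and 24.6 in untreated biliary cells, with 2 reads in all in untreated hepatocytes. DDC biliary libraries were again above the rest. Region 12 was higher in DDC biliary than in DDC hepatocytes by 2.69 ± 0.49 (adjusted p = 0.00116). Its rise in reprogrammed hepatocytes (1.77 ± 0.49, adjusted p = 0.0249) was lost without DDC hepatocyte library 2 or 3 (adjusted p = 0.0793 and 0.0642) or reprogrammed library 1 or 3 (adjusted p = 0.117 and 0.0699).

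The farthest of them, Ehf region 19 (chr2:103347089-103348695), stood at 1.71, 2.87 and 5.04 in DDC hepatocytes, 22.3, 20.6 and 13.03 in reprogrammed hepatocytes, 35.0, 28.2 and 27.3 in DDC biliary cells and 13.6, 18.4 and 12.5 in untreated biliary cells. Untreated hepatocytes stood at 4.96, 6.61 and 0 there, on 5 reads. The next nearest gene to region 19 is Elf5, at 64.2 kb. It rose by 2.27 ± 0.61 in reprogrammed against DDC hepatocytes (adjusted p = 0.0225), a call lost without DDC hepatocyte library 1 or 2 (adjusted p = 0.0777 and 0.0681) or reprogrammed library 1 or 2 (adjusted p = 0.0968 and 0.081). Ehf region 3 (chr2:103258813-103263664), 2.19 kb from the body, had the largest difference among the called Ehf regions between DDC biliary cells and DDC hepatocytes (3.13 ± 0.70, adjusted p = 0.00404). It stood at 17.5, 16.5 and 9.77 in the former and at 0, 0.96 and 1.68 in the latter, on 4 reads. Untreated hepatocytes stood at 0, 3.30 and 8.52 in region 3, also on 4 reads. Of the 19 Ehf regions 13 were tested, and 10 were higher in DDC biliary than in DDC hepatocytes (16.4% of all tested regions), 6 in untreated biliary than in untreated hepatocytes (22.1%) and 4 in reprogrammed than in DDC hepatocytes (8.14%). As for Grhl2, these counts describe the regions that passed the filter and not the locus.

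Klf5 was the gene whose summed reprogrammed level came closest to that of DDC biliary cells. Its body lies at chromosome 14, 99298691 to 99313412, with Pibf1 43.8 kb away on one side and Klf12, a gene of the same family, 552.8 kb away on the other. Klf5 stood at 129, 79.3 and 76.6 nuclear RPM in untreated hepatocytes, 63.2, 42.6 and 86.5 in DDC hepatocytes, 138, 156 and 140 in reprogrammed hepatocytes, 149, 159 and 153 in DDC biliary cells and 137, 175 and 177 in untreated biliary cells. Both hepatocyte groups lay below all 9 other libraries, and those 9 overlapped.

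Klf5 rose by 1.22 ± 0.23 in reprogrammed against DDC hepatocytes (adjusted p = 0.00274) and was higher in DDC biliary cells than in DDC hepatocytes by 1.30 ± 0.23 (adjusted p = 0.000706), each in all 16 alternatives run. In untreated cells the difference was 0.81 ± 0.23 (adjusted p = 0.0117), which missed the threshold when only those 2 groups were fitted (adjusted p = 0.0529) or reads were thinned (adjusted p = 0.131). Reprogrammed and DDC biliary cells differed by -0.09 ± 0.23 (adjusted p = 1.0; 0.552 to 1.0 over 16 alternatives). The reprogrammed mean lay at 90.1% of the way from DDC hepatocytes to DDC biliary cells (82.8, 102.4 and 85.2% by library), against 34.6% for Grhl2 and 41.0% for Elf3. The Klf5 regions called higher in DDC biliary cells than in DDC hepatocytes were not alike. Regions 3 and 8 lay at 111.3 and 112.8%, but regions 9, 4 and 11 at 48.4, 21.1 and 17.7%. Whether positions differ between genes or between regions was not tested.

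At Klf5 a region that was open everywhere and a region that was not gave different pictures. Klf5 region 3 (chr14:99298117-99301630), over the end of the body with the lower position, stood at 119, 69.4 and 68.1 nuclear RPM in untreated hepatocytes, 54.6, 37.8 and 70.5 in DDC hepatocytes, 83.2, 115 and 92.3 in reprogrammed hepatocytes, 92.0, 91.1 and 94.7 in DDC biliary cells and 112, 141 and 140 in untreated biliary cells. It held 60.3 to 90.0% of the Klf5 signal. It was higher in reprogrammed than in DDC hepatocytes by 0.85 ± 0.24 (adjusted p = 0.0255), a call lost in 5 of 6 fits without a library (without DDC hepatocyte library 1 or 2, adjusted p = 0.0541 and 0.122; without reprogrammed library 1, 2 or 3, adjusted p = 0.0562, 0.111 and 0.0574).

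Klf5 region 8 (chr14:99324232-99325150), 11.28 kb beyond the body, stood at 2.56, 1.92 and 3.36 nuclear RPM in DDC hepatocytes, 27.6, 23.5 and 18.9 in reprogrammed hepatocytes, 19.8, 21.0 and 22.2 in DDC biliary cells and 6.42, 11.48 and 11.39 in untreated biliary cells. No read fell in it in untreated hepatocyte libraries 1, 2 and 3, whose limits were 14.873, 4.956 and 12.773. The limits of libraries 1 and 3 lie above the untreated biliary values, and that of library 2 lies below them. Limma called the region higher in untreated biliary cells than in untreated hepatocytes (adjusted p = 3.26e-05), in all 10 alternatives run. Reprogrammed and DDC biliary libraries overlapped, and both were above all untreated biliary libraries. Region 8 rose by 2.76 ± 0.40 in reprogrammed against DDC hepatocytes (adjusted p = 0.00166) and was higher in DDC biliary cells than in DDC hepatocytes by 2.62 ± 0.40 (adjusted p = 0.000427). The difference between DDC and untreated biliary cells was 1.07, with an adjusted p of 0.174. Klf5 region 9 (chr14:99327909-99329334), 15.21 kb beyond the body, had the largest called Klf5 difference between DDC biliary cells and DDC hepatocytes (2.99 ± 0.70, adjusted p = 0.00544), at 15.2, 22.3 and 8.70 against 1.71, 0 and 1.68, the latter on 6 reads. Reprogrammed hepatocytes stood at 11.07, 5.70 and 7.36 in region 9, and untreated hepatocytes at 0, 6.61 and 0, on 4 reads.

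**Figure D2:**
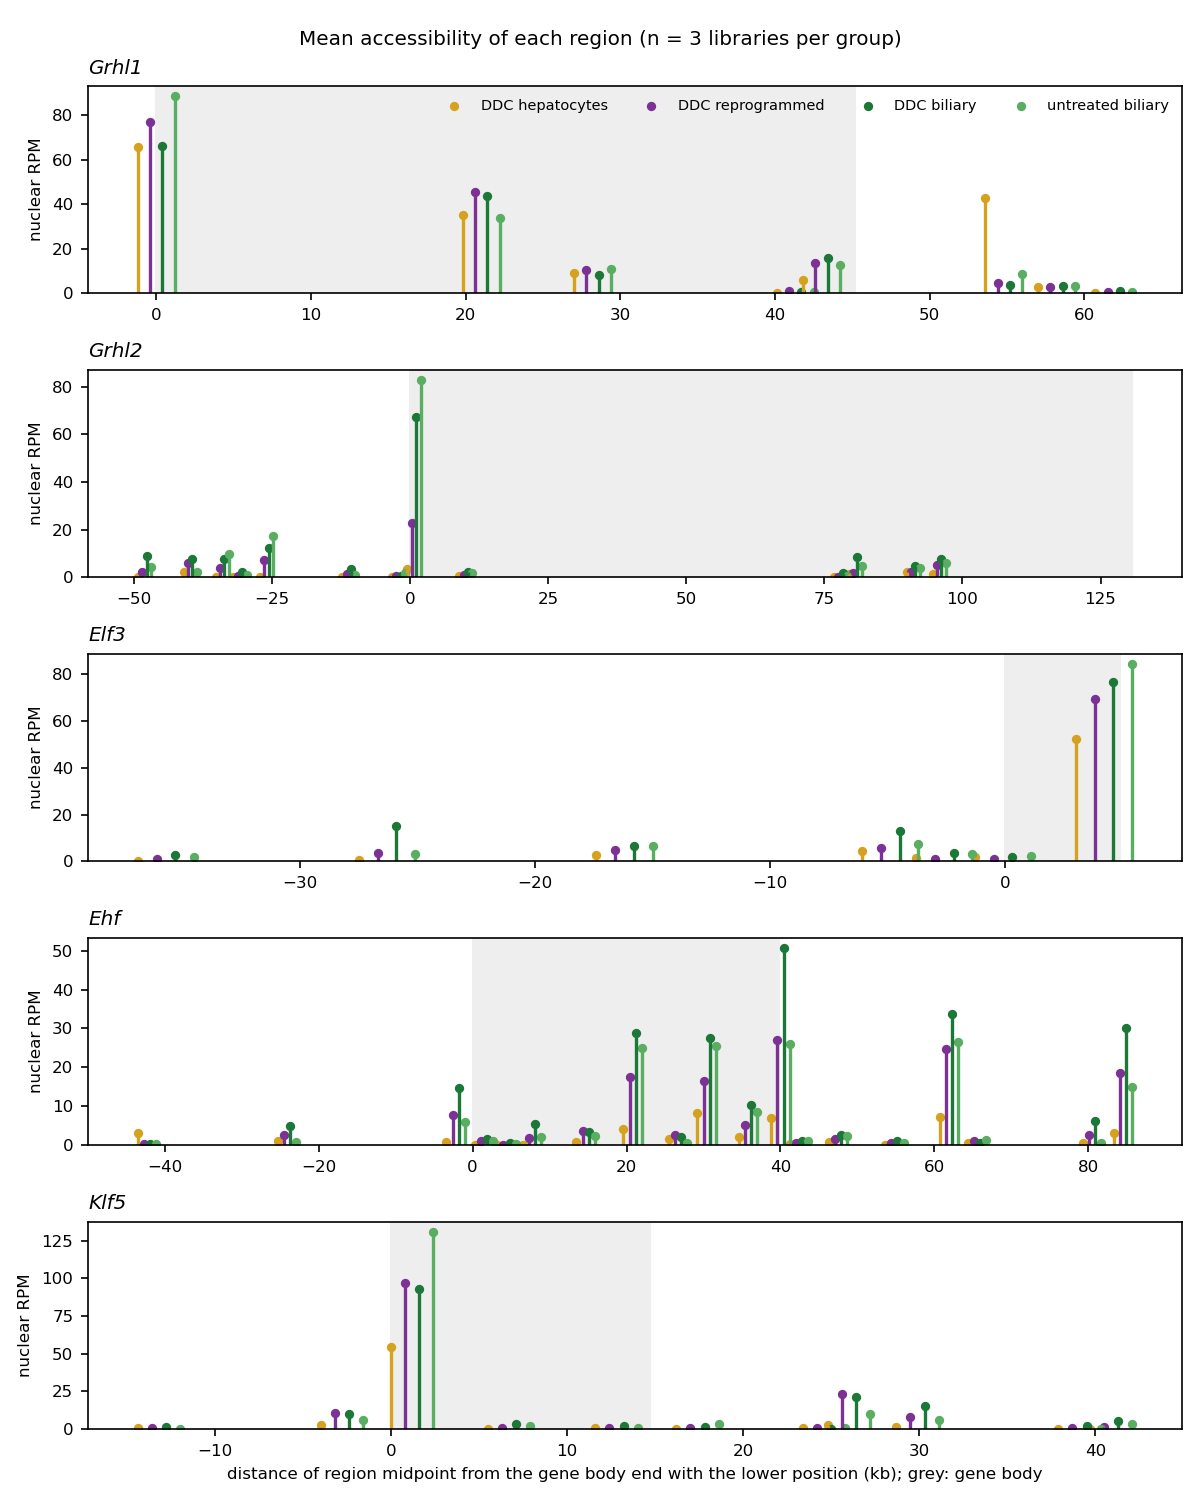
Mean accessibility of each region in nuclear RPM (vertical axis, from 0) against the distance in kb of its midpoint from the gene body end with the lower position, for 4 groups drawn side by side with a small horizontal offset (n = 3 libraries each); the gene body is grey and untreated hepatocytes are left out. One tall region at a gene end leads Grhl1, Grhl2, Elf3 and Klf5, Ehf is spread over several regions, and the hepatocyte bar alone is tall at Grhl1 region 6.

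Read across the 5 genes, 4 of them were called between cell types, and few between DDC and untreated cells. In untreated biliary cells against untreated hepatocytes, Grhl2, Ehf, Elf3 and Klf5 were higher and none was lower, where 25.7% of 16378 tested genes were called higher and 13.4% lower. In DDC biliary cells against DDC hepatocytes the same 4 genes were higher, beside 12.8% of all tested genes higher and 11.7% lower. The median change of the 5 genes was 0.99 and 1.30 in these comparisons, against 0.32 and 0.07 over all genes. In reprogrammed against DDC hepatocytes Grhl2, Ehf and Klf5 were higher, beside 8% of all tested genes higher and 6.43% lower, with a median of 1.22 for the 5 against 0.12. These comparisons share groups, so their calls are not independent of each other. The 5 genes were chosen with earlier results of these data known, so their counts beside all genes are a description and not a test.

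Between DDC and untreated hepatocytes 1 of the 5 genes was called (Grhl2, lower, from a total of 65 reads against 23), where 3.9% of genes were called lower and 9.63% higher. In biliary cells limma called 0 of 5, where 3.25% of genes were called. At an unadjusted p under 0.05 that number was 1 (2756 of 16378 genes), and edgeR called 1 (2568 of all genes), Ehf in both cases. The difference between the DDC effects in biliary cells and hepatocytes was called for 0 of 5 by limma (2.78% of all genes) and 0 by edgeR (525 of all genes). At an unadjusted p under 0.05 it was met by 2 (3189 of all genes), Ehf (0.74 ± 0.26, adjusted p = 0.133) and Grhl2 (1.04 ± 0.46, adjusted p = 0.225). Without untreated hepatocyte library 2, that difference passed for Grhl2 (1.57, adjusted p = 0.00141) and Ehf (0.86, adjusted p = 0.044).

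Between reprogrammed hepatocytes and DDC biliary cells limma called 0 of 5 genes, where 0.0244% of all genes were called. At an unadjusted p under 0.05 the number was 2, where 868 of 16378 genes were under it. By edgeR 2 were called (477 of all genes) and by the fit without untreated hepatocytes 2 (280 of all genes). Each time these were Grhl2 and Ehf, both lower in reprogrammed cells.

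**Figure D3:**
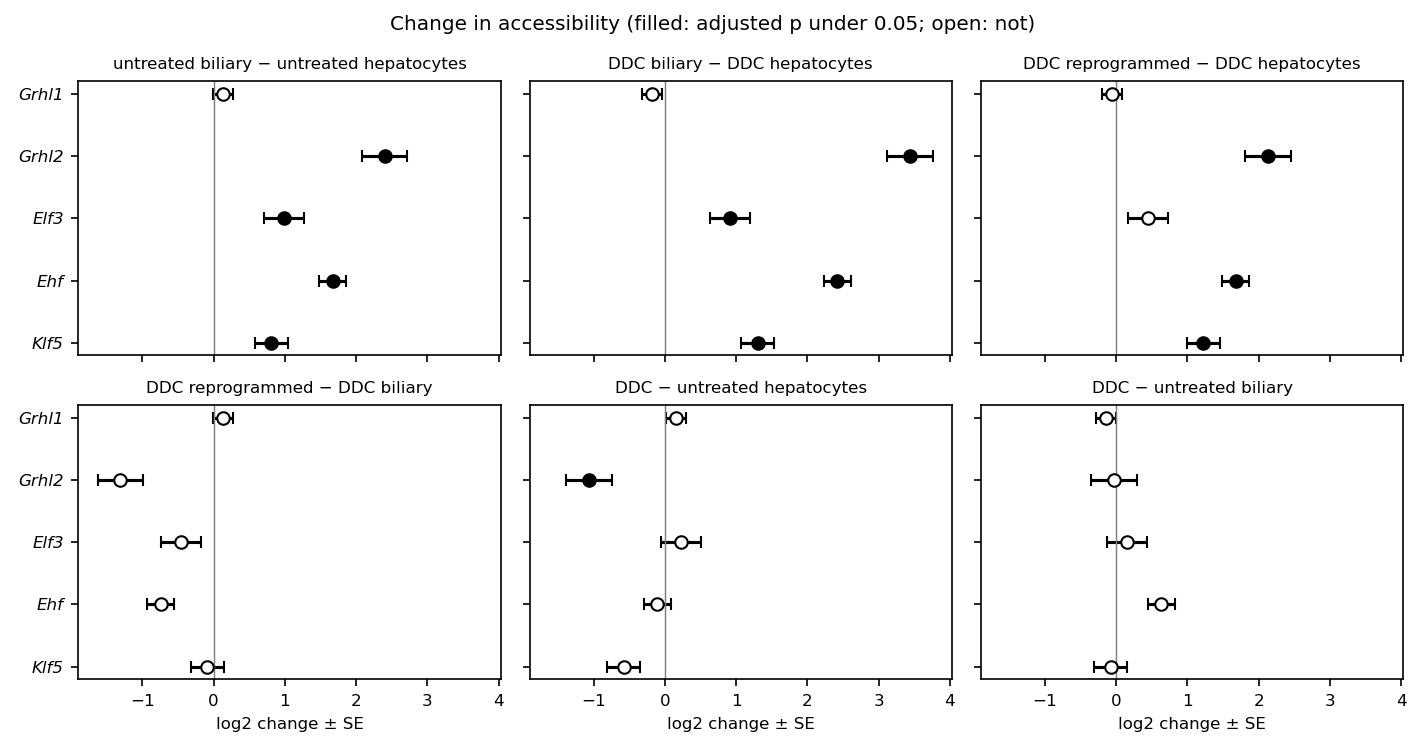
Difference between 2 groups for each gene, on the log2(nuclear RPM + 1) scale (horizontal axis, estimate ± SE from limma over 15 libraries), in 6 comparisons; filled points have an adjusted p under 0.05. Grhl1 stays near 0 in each panel, and Grhl2 has the largest difference in both comparisons of biliary cells with hepatocytes.

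Between biliary cells and hepatocytes, and between reprogrammed and DDC hepatocytes, nearly all called regions were higher, as the called genes were. Of the 58 regions 45 passed the filter on low values and were tested. In DDC biliary cells against DDC hepatocytes 26 were higher and 1 lower, where 16.4% of all tested regions were higher and 12.1% lower. In untreated cells 21 were higher and 1 lower (22.1% and 10.9% of all regions). In reprogrammed against DDC hepatocytes 10 were higher and 1 lower (8.14% and 6.06%). A region that passed the filter through biliary libraries alone had to differ from hepatocytes, so these counts describe the regions that passed and not the loci. In DDC against untreated hepatocytes 5 were higher and 0 lower by limma (9.94% and 2.2% of all regions). By edgeR 2 were called (5482 of all 79075 tested), and 16 were under an unadjusted p of 0.05 (21484 of all tested). The 5 were Grhl1 region 3, Grhl2 region 12, Elf3 region 4, Ehf region 12 and Klf5 region 8, which held 6, 0, 0, 2 and 0 reads in untreated hepatocytes, so no fold is given for them. These regions did not follow their genes, of which 0 were called higher and 1, Grhl2, lower. In reprogrammed against DDC biliary cells limma called 0, as it did among all regions (0% called). There 8 of the member regions were under an unadjusted p of 0.05 (4309 of all tested), edgeR called 5 (2207) and the fit without untreated hepatocytes 2 (934). For the difference of the DDC effects limma also called 0 member regions (2.35% of all regions), with 7 under an unadjusted p of 0.05 (14476 of all tested) and 2 called by edgeR (4427).

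**Figure D4:**
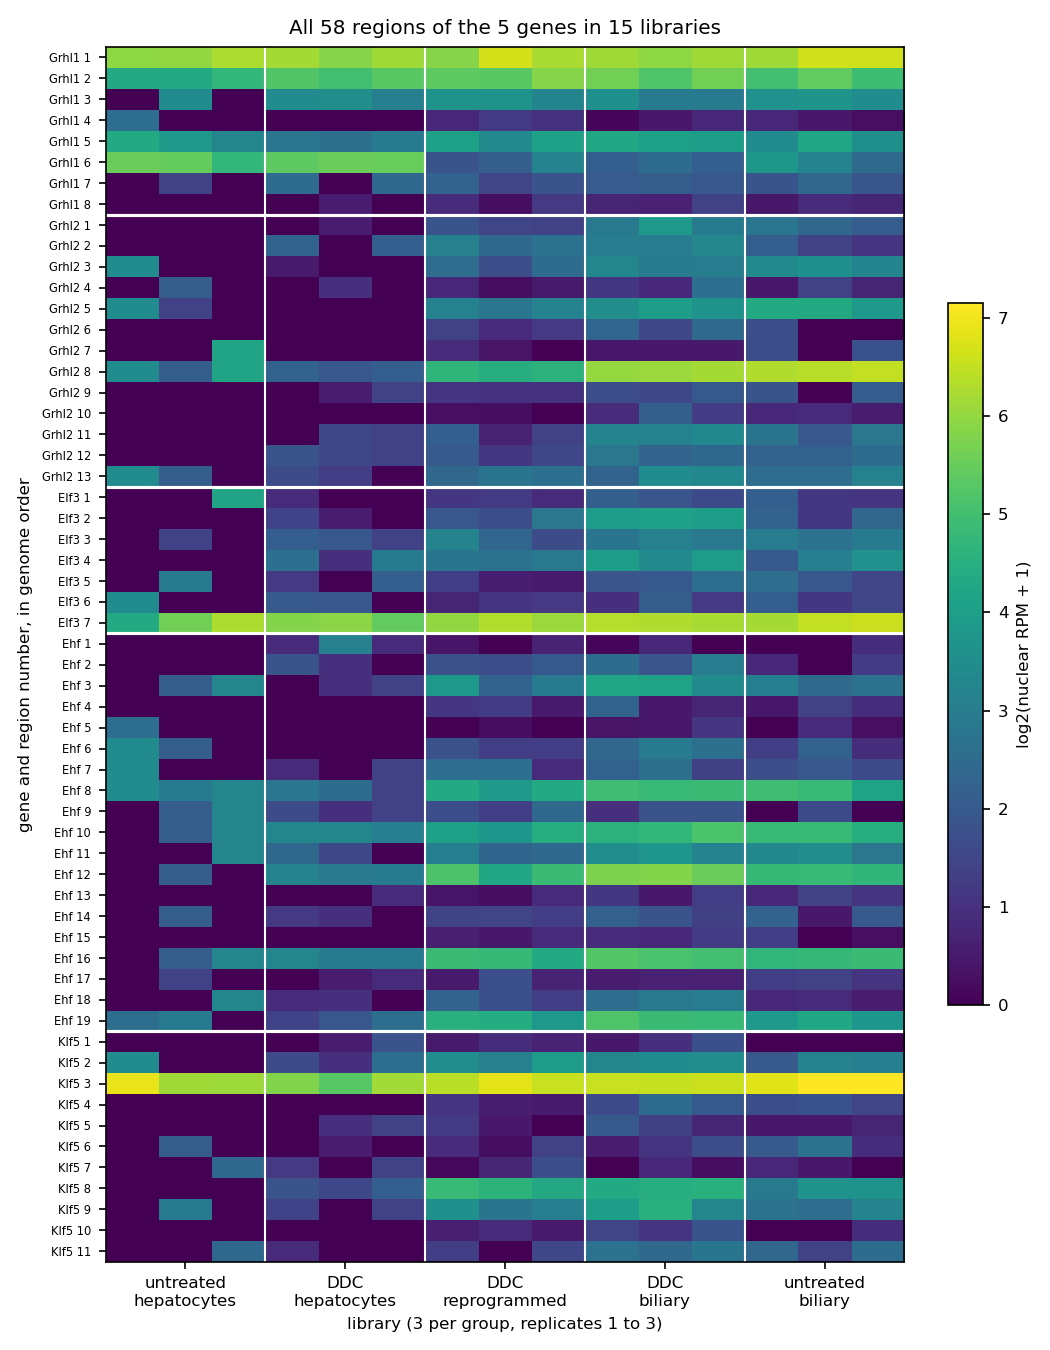
All 58 regions (vertical axis, numbered along the chromosome within each gene) in the 15 libraries (horizontal axis, 3 per group), coloured by log2(nuclear RPM + 1) from 0 to about 7. White lines separate groups and genes; Grhl1 region 6 is bright in the 6 hepatocyte libraries and dark in the others.

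Levels per kb of region allow the genes to be set side by side. In DDC biliary cells the level was 14.8 ± 1.44 nuclear RPM per kb for Grhl1, 14.7 ± 0.50 for Klf5, 13.2 ± 0.28 for Elf3, 10.6 ± 0.80 for Grhl2 and 7.70 ± 0.39 for Ehf (mean ± SD, n = 3). In DDC hepatocytes it was 16.9 ± 1.26, 6.13 ± 2.10, 7.01 ± 0.98, 0.91 ± 0.11 and 1.42 ± 0.19 in the same order. Grhl2 thus had the lowest level per kb of the 5 in DDC hepatocytes, and Ehf the lowest in DDC biliary cells.

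Across the 15 libraries Grhl2 varied most like Ehf (Pearson r of log2 levels 0.91) and Klf5 (0.88). Grhl1 had an r of -0.21 to 0.03 with the other 4. Among 13484 genes of mean 10 or more, the 3 most like Grhl2 were Map2 (0.969), Fstl4 (0.967) and Spint1 (0.963), a surface protease inhibitor. For Ehf they were Slc7a1 (0.981), Epcam (0.98) and Muc1 (0.979), the last 2 surface proteins of epithelia. For Elf3 they were Ramp1 (0.967), Gm21814 (0.96) and Gm8439 (0.957), for Klf5 Six5 (0.978), Atp10a (0.974) and LOC115488016 (0.958), and for Grhl1 Zfp639 (0.761), Sec31a (0.748) and Ints3 (0.727). These correlations are over libraries that differ in cell type and depth together, so they are a description.

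Genes known as targets of grainyhead-like factors were listed to set beside Grhl2. This list and those below were also chosen with earlier results of these data known, so their counts are a description. Of 23 such genes 22 were tested. In DDC biliary cells against DDC hepatocytes 16 were higher and 0 lower (12.8% and 11.7% of all genes), with a median of 1.14 against 0.07 over all genes. Epcam, a surface adhesion protein, was higher by 2.87 ± 0.19 (adjusted p = 7.53e-07) and Esrp1, an epithelial splicing regulator, by 2.86 ± 0.34 (adjusted p = 3.42e-05). Rab25, a vesicle GTPase of epithelia, had a mean of 16.0 nuclear RPM in DDC biliary cells and 0.64, under the limit of 3 reads, in DDC hepatocytes (adjusted p = 0.00159). In untreated biliary cells against untreated hepatocytes 18 were higher and 0 lower (25.7% and 13.4% of all genes, median 1.29 against 0.32). The tight junction gene Cldn7 had a mean of 40.6 nuclear RPM in untreated biliary cells and 2.20, under the limit of 3 reads, in untreated hepatocytes (adjusted p = 7.69e-05).

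In reprogrammed against DDC hepatocytes 6 target genes were higher and 0 lower (8% and 6.43% of all genes), with a median of 0.58 against 0.12. They included Epcam (2.14 ± 0.19, adjusted p = 3.04e-05), Spint1 (1.46 ± 0.22, adjusted p = 0.000636) and Esrp1 (1.30 ± 0.34, adjusted p = 0.0176). Against DDC biliary cells limma called 0 of the 22 in reprogrammed cells, with a median of -0.61 against 0.05. At an unadjusted p under 0.05, 11 were lower and 0 higher, where 868 of 16378 genes were under it in either direction. Mean Esrp1 was 20.4 in DDC hepatocytes, 48.9 in reprogrammed hepatocytes and 144 in DDC biliary cells. In DDC against untreated hepatocytes 3 were higher, Cldn7, Ppl and Cdh1, and Spint1 was lower (-0.71 ± 0.22, adjusted p = 0.0431), where 9.63% of all genes were higher and 3.9% lower. These calls, like all gene calls of that comparison, were lost when limma was fitted to those 2 groups alone or to thinned reads (0 genes each, with 2289 and 1616 at an unadjusted p under 0.05, and 817 called by edgeR). In DDC against untreated biliary cells limma called Spint2 alone (3.25% of all genes), higher by 0.58 ± 0.14 (adjusted p = 0.0284).

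Relatives of the 5 genes in the grainyhead, ETS and KLF families did not move as a block. Of 33 tested, 7 were higher and 3 lower in DDC biliary cells against DDC hepatocytes (12.8% and 11.7% of all genes, median 0.20 against 0.07). In untreated cells 17 were higher and 2 lower (25.7% and 13.4%, median 0.73 against 0.32). In reprogrammed against DDC hepatocytes 7 were higher and 1 lower (8% and 6.43%, median 0.17 against 0.12). Elf4 (1.08 ± 0.17, adjusted p = 0.00106), Elk3 (1.17 ± 0.32, adjusted p = 0.022) and Fli1 (1.24 ± 0.36, adjusted p = 0.0316), all ETS genes, were higher. Klf15, a metabolic factor of hepatocytes, was lower (-1.08 ± 0.22, adjusted p = 0.00422). Grhl3, the remaining grainyhead-like member, was higher in untreated biliary cells than in untreated hepatocytes (adjusted p = 0.00562), with means of 18.9 and 4.41, the second under the limit of 3 reads.

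Between DDC and untreated hepatocytes 5 of the 33 relatives were higher and 1 lower (9.63% and 3.9% of all genes). In biliary cells 2 were higher and 2 lower (3.25% of all genes in either direction). Under DDC, the stress-responsive factors Klf6 and Ets2 rose in hepatocytes (0.81 ± 0.13 and 0.86 ± 0.11, adjusted p = 0.00178 and 0.000532), calls lost with those 2 groups fitted alone or with thinned reads. In biliary cells Ets1 and Etv6 rose (0.65 ± 0.16 and 0.56 ± 0.12, adjusted p = 0.036 and 0.0186), and Klf9 and Klf13 fell by 1.04 ± 0.18 and 0.43 ± 0.10 (adjusted p = 0.0086 and 0.024).

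Repressors of epithelial genes were the opposite list. Of 7 tested, limma called Snai2 alone in DDC biliary cells against DDC hepatocytes (-1.68 ± 0.30, adjusted p = 0.00073), where 11.7% of all genes were lower and 12.8% higher. Snai2 means were 36.7 in untreated hepatocytes, 77.6 in DDC hepatocytes, 51.8 in reprogrammed hepatocytes, 24.2 in DDC biliary cells and 33.9 in the untreated ones. Snai2 rose under DDC in hepatocytes (1.06 ± 0.30, adjusted p = 0.0291). Zeb2 alone was called in reprogrammed against DDC hepatocytes, higher by 1.04 ± 0.29 (adjusted p = 0.027), from 75.3 to 155. There 8% of all genes were higher and 6.43% lower. Stellate cells also use Zeb2, and the 5 stellate markers went both ways from DDC to reprogrammed hepatocytes. Mean Pdgfrb went from 5.3 to 23.2, Des from 12.4 to 25.7 and Colec11 from 14.3 to 16.0. Mean Lrat went from 22.1 to 13.5 and Reln from 65.3 to 63.3, and the sums of the stellate markers given above overlapped. Their part in this result was not tested. Twist2 rose under DDC in hepatocytes (1.57 ± 0.24, adjusted p = 0.00143) and was higher in untreated biliary cells than in untreated hepatocytes (1.71 ± 0.24, adjusted p = 0.000108). Snai2 and Twist2 were the 2 of 7 called under DDC in hepatocytes, beside 9.63% of all genes higher and 3.9% lower. Twist2 was the only one called between the untreated cell types, beside 25.7% higher and 13.4% lower. The calls of Snai2 and Twist2 between DDC and untreated hepatocytes were lost with those 2 groups fitted alone or with thinned reads.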

How the data were processed

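ATAC-seq was measured in 15 mouse liver libraries, 3 in each of 5 groups taken from the labels. The authors deposited 1 matrix of 93217 regions in a unit they call TPM. Its values are whole multiples of 1 step per library (100.0% of values up to 100 reads, tolerance 0.02 reads), with no division by region length, so the deposited values are RPM and whole reads were recovered. The tests planned for TPM were kept, since both units need a log scale. The submitters' processing notes name Bowtie2, SAMtools, MACS2, bedtools and the build mm10. The sources used here give no settings, versions or filters. Mitochondrial regions were left out and each library was rescaled to 1000000 nuclear reads.

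Regions were tied to RefSeq protein-coding genes by midpoint or by the nearest body within 50 kb, which tied 80377 regions (86.2%) to 16719 genes, and summed per gene. Values were tested as log2(nuclear RPM + 1) with limma-trend (limma 3.58.1, R 4.3.3) over all 15 libraries, for 16378 genes and 79075 regions of mean 1 or more, with Benjamini-Hochberg adjustment over all of them and a threshold of 0.05. The 7 comparisons included the difference between the DDC effects in both cell types. edgeR 4.0.16 on the recovered reads was an alternative and called 817 genes in DDC against untreated hepatocytes and 6401 in DDC biliary cells against DDC hepatocytes. Other alternatives were the deposited scale, a pseudocount of 5, TMM factors, no filter, regions inside bodies, fits of the compared groups only, thinned reads, a replicate block and leaving out each library. The procedure was tested on simulated data.

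The text names all 5 genes, the regions of each with the highest mean or largest change, and up to 4 called genes per list and comparison. Some genes that this rule names are not reported here. The 5 genes and the gene lists were chosen with earlier results of these data known. Replicates of a group differed by more than sampling noise (chi-square divided by its degrees of freedom, 2.18 to 7.47).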

Additional observations from a re-analysis of the deposited data

How the results depend on the processing

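Depth limits untreated hepatocytes most, with 23 reads for Grhl2, 45 for Ehf, 62 for Elf3 and 92 for Klf5 over the 3 libraries. Of the gene results past the threshold, 166 alternative values kept the call, 20 lost it and 1 changed sign. Of the results past it for the named regions, 233 alternative values kept the call and 52 lost it. The comparisons are given letters here: (a) untreated biliary cells against untreated hepatocytes, (b) DDC against untreated hepatocytes, (c) DDC against untreated biliary cells, (d) reprogrammed against DDC hepatocytes, (e) reprogrammed against DDC biliary cells, (f) DDC biliary cells against DDC hepatocytes, and (g) the difference of the DDC effects, and series of 7 counts follow that order. Genes called were 6399, 2217, 532, 2363, 4, 4011 and 455, and regions called 26102, 9598, 2741, 11232, 0, 22599 and 1860. Causes of the changes below were not tested.

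On the values as deposited, which keep mitochondrial reads in the total, the counts that moved were 14086, 13749, 3995 and 10384 genes in (a), (b), (d) and (g), and 40978, 33748, 8703, 24698, 436 and 19378 regions in all but (f). The median over all genes moved from 0.321 to 1.921, 0.207 to 1.543, 0.117 to 0.556, 0.074 to 0.503 and -0.212 to -1.423 in (a), (b), (d), (f) and (g). Higher and lower genes were 4202 and 2197 by nuclear RPM but 13931 and 155 as deposited in (a), 1578 and 639 but 13735 and 14 in (b), 355 and 177 but 445 and 28 in (c), 1310 and 1053 but 3576 and 419 in (d), 2097 and 1914 but 3966 and 854 in (f), and 169 and 286 but 154 and 10230 in (g). Region splits changed likewise, from 17498 and 8604 to 38992 and 1986 in (a), 7861 and 1737 to 33558 and 190 in (b), 6440 and 4792 to 18623 and 6075 in (d) and 13004 and 9595 to 23133 and 10023 in (f). Signs turned for Grhl1 in reprogrammed (0.40) and DDC biliary cells (0.27) against DDC hepatocytes, and in DDC against untreated hepatocytes for Grhl2 (0.41), Ehf (1.39), Klf5 (0.98), Grhl1 region 1 (1.52), Grhl2 region 8 (0.18) and Klf5 region 3 (0.91). They also turned in DDC against untreated biliary cells for Grhl2 (0.12), Klf5 (0.07) and Elf3 region 7 (0.02), and in the difference of the DDC effects for Grhl2 (-0.29), Ehf (-0.61), Klf5 (-0.91), Grhl2 region 8 (-0.33) and Klf5 region 3 (-1.25).

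With edgeR the counts that moved were 817, 2568, 4947, 477 and 6401 genes in (b) to (f), and 5482, 10522, 25183, 2207, 34659 and 4427 regions in (b) to (g). Its splits were 2362 higher and 2481 lower genes in (a), 467 and 350 in (b) and 295 and 230 in (g). Signs turned for Grhl2 in DDC against untreated biliary cells (0.02, also 0.02 with TMM factors), Elf3 (0.09) and Klf5 region 3 (-0.53) in the difference of the DDC effects and Grhl1 region 1 in DDC against untreated hepatocytes (0.58). Between reprogrammed and DDC biliary cells 19 genes were called with a pseudocount of 5, 2 with TMM factors and 2 with regions inside bodies, which also gave 332 in (c). Regions inside bodies turned the sign of Grhl1 in DDC against untreated biliary cells (0.24), reprogrammed against DDC hepatocytes (0.48) and DDC biliary cells against DDC hepatocytes (0.43), and of Elf3 in DDC against untreated biliary cells (-0.13).

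Fitting the compared groups alone gave 2801, 0, 4477, 4402, 1132, 6480 and 168 genes and 15333, 0, 15840, 24563, 5041, 36416 and 330 regions. Thinned reads gave 770, 0, 3930, 1020 and 0 genes in (a), (b), (c), (e) and (g), and 0.02 for Grhl1 in reprogrammed against DDC hepatocytes. Fitting without untreated hepatocytes, chosen after the data had been seen, gave 2751, 5742, 280 and 7106 genes and 11832, 29286, 934 and 38979 regions in (c) to (f).

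Leaving out 1 library gave 4721 to 7458, 815 to 4554, 43 to 455, 1065 to 1897, 0 to 1, 2668 to 3422 and 86 to 2234 genes, and 19712 to 32301, 5737 to 19201, 204 to 1696, 3320 to 8302, 0 to 0, 13411 to 18262 and 153 to 9717 regions. Results whose sign turned ran from -0.12 to 0.05 for Grhl1 in reprogrammed against DDC hepatocytes, -0.07 to 0.04 for Grhl2 in DDC against untreated biliary cells, and -0.19 to 0.62 for Elf3 and -0.23 to 0.09 for Ehf in DDC against untreated hepatocytes, with -0.47 to 0.34 for Elf3 in the difference of the DDC effects. Grhl1 region 1 ran from -0.09 to 0.09, -0.02 to 0.40, -0.03 to 0.38 and -0.09 to 0.08 in (b), (d), (e) and (f). Elf3 region 7 ran from -0.23 to 0.72 in (b) and -0.85 to 0.10 in (g), and Klf5 region 3 from -0.08 to 0.15 in (e) and -0.11 to 0.36 in (g).

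Replicate numbers are shared between groups, but nothing says that they mark an animal or a day. Same-numbered libraries deviated together weakly (r from -0.2 to 0.24, with 20 of 30 under 0.1), and 9 of 15 libraries were nearest to one of their own number. By replicate number, r was 0.24, 0.03 and 0.23 between DDC hepatocytes and reprogrammed hepatocytes. It was 0.05, 0.21 and 0.13 between DDC hepatocytes and DDC biliary cells, and 0.2, -0.01 and 0.17 between reprogrammed hepatocytes and DDC biliary cells. The number of 15 to be met without pairing was not computed, so pairing is not settled. With the replicate number as a block, 6522, 2320, 551, 2346, 3, 4069 and 456 genes and 25749, 8936, 2378, 10247, 0, 22214 and 1319 regions were called. Among the 58 regions the block gave 20 calls in (a), 9 in (d) and 26 in (f), in place of 22, 11 and 27.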
